A study of Sus scrofa with 2 samples.

Results

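Voltage-gated sodium and calcium channel genes were examined in RNA sequencing of the hippocampus of piglets. They were taken by symbol from a table of FPKM values (fragments counted on a gene, divided by its length and by the size of the library). The rule took SCN genes with a digit that end in A or B, and all genes that start with CACNA, CACNB or CACNG. It found 30 genes, 12 of sodium channels and 18 of calcium channels, among 25322 gene IDs, of which 11804 had a symbol. Another 10 symbols of the same families, CACNA1B, CACNA1C, CACNA1H, CACNB3, CACNG2, CACNG3, CACNG4, CACNG5, SCN3B and SCN4B, had no ID paired with them and were not analysed here.

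The iron dextran group was hippocampus of Rongchang piglets that received iron dextran, an injectable iron and sugar polymer complex used against iron deficiency. The control group was hippocampus of Rongchang piglets labelled as control. Both carry the genotype label "wide type", and neither dose, age, sex nor number of animals is given in the sources used here. Each group was 1 sample with 1 value per gene. The label of each sample lists 2 names without saying whether these were animals, libraries or runs. With no spread between replicates, no test was made, and no difference reported here has a replicate check. In whole tissue, fewer cells of a type and less RNA per cell cannot be told apart.

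A voltage-gated sodium channel is built on a large pore-forming alpha subunit (the SCN genes ending in A), which opens on depolarization and carries the upstroke of the action potential. Small beta subunits (SCN genes ending in B) span the membrane beside it, tune its gating and act as cell adhesion molecules. A calcium channel is built on an alpha1 subunit (CACNA1 genes), which turns depolarization into calcium entry for transmitter release, bursting and gene regulation. Its extracellular alpha2delta (CACNA2D) and cytoplasmic beta (CACNB) subunits bring the pore to the membrane. Several gamma genes (CACNG) encode instead TARPs, auxiliary subunits that traffic AMPA-type glutamate receptors.

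The FPKM values summed to 850165 in iron dextran and 924070 in control, with 16865 IDs above 0 in iron dextran and 16727 in control. The number of fragments is unknown. Of 690 low genes, 197 lay within 0.05 log2 units of 1 common ratio between the samples, which would give the iron dextran sample 1.06 times the depth of control if read as whole fragments. Markers of neurons and of hippocampal subfields were present. All 8 measured neuronal markers, all 8 of interneurons and 8 of 10 matched hippocampal subfield markers had a mean of at least 1 FPKM. Over the whole table, 12557 of 25322 IDs did. Below it were PROX1, at 0.858 FPKM in iron dextran and 0.761 FPKM in control, and ZBTB20. The latter had 0.082 FPKM in iron dextran and 0.15 FPKM in control. Thalamic and striatal markers passed in 5 of 7 cases, so these counts do not mark the hippocampus in particular. Differences are given as log2(FPKM + 1), iron dextran minus control, for genes with a mean of at least 1 FPKM (12557 genes). The limit for calling a gene higher or lower was 1.5-fold on this scale, where the pseudocount of 1 shrinks the differences of weakly expressed genes.

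Of the 30 channel genes, 19 reached a mean of 1 FPKM, and 0 of these 19 were 1.5-fold higher or 1.5-fold lower in iron dextran. Across all 12557 genes the shares past the same limits were 2.47% higher and 1.47% lower, so a count of 0 among 19 lay near the background. These were 310 genes higher and 185 lower, and 454 higher and 132 lower with equal column totals. On the difference scale 12 of the 19 were above 0, where 49% of all genes were, and 7 were below 0, where 51% of all genes were. Their median log2 difference was 0.014, and that of all genes was −0.0046. The direction of the channel median turned at a mean of at least 5 FPKM (−0.12 over 11 genes), and it was 0.13 with equal column totals. Of the 19, 11 lay outside the middle 50% of all genes, which ran from −0.12 to 0.14. By class, at these small sizes, the 4 measured sodium channel alpha genes were above 0, the beta gene SCN2B was below 0, and alpha2delta genes lay on both sides.

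**Figure D1:**
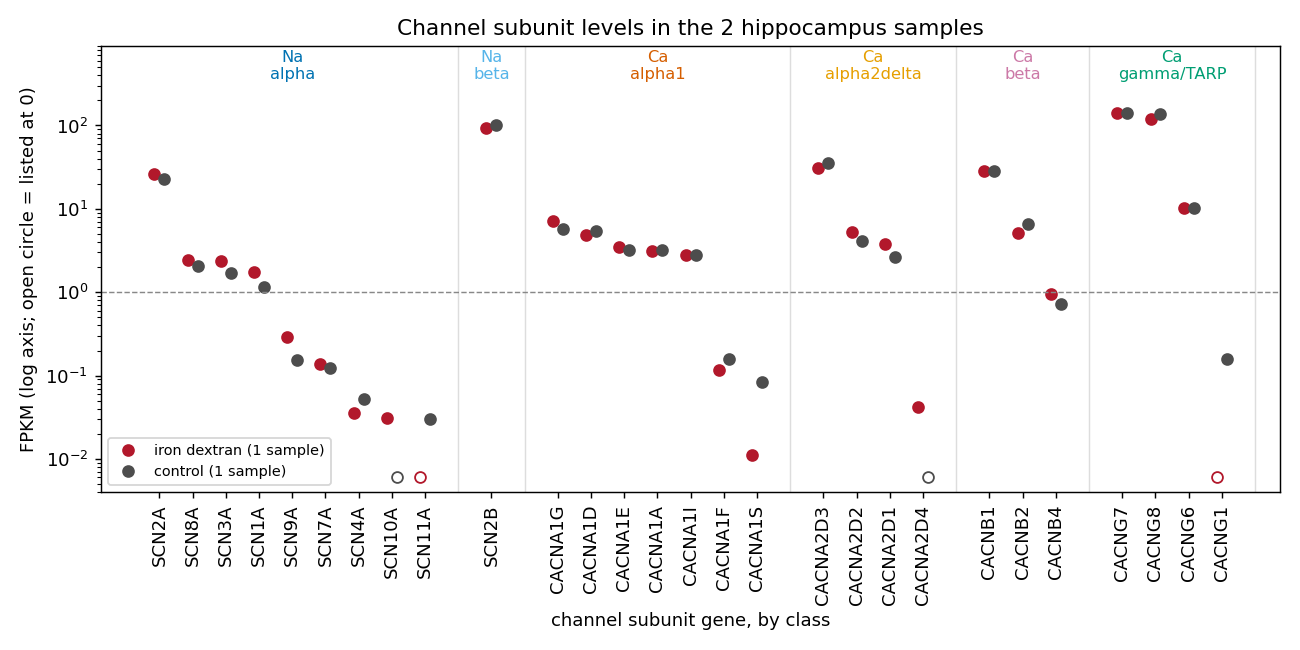
FPKM (log axis) of 28 of the 30 channel subunit genes in the iron dextran sample (red) and the control sample (grey), by subunit class and ordered by mean level; open circles mark values listed at 0 and the dashed line marks 1 FPKM. Levels span from CACNG7 at about 140 FPKM to genes under 0.1 FPKM, and for the 18 genes shown with a mean above the dashed line the ratio of iron dextran to control runs from 0.773 (CACNB2) to 1.503 (SCN1A).

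SCN2A (ENSSSCG00000015905) encodes the alpha subunit of excitatory axons, used there early in rodent development. It had 26.2 FPKM in iron dextran and 22.97 FPKM in control. That is a ratio of 1.14 and a log2 difference of 0.18. SCN2A was the highest alpha gene in both samples by a wide margin, with 78.6% of the summed alpha FPKM in iron dextran and 81.0% in control. Levels and shares compared between genes, here and below, depend on the gene lengths of the annotation, which is not given. They were not checked against it.

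SCN8A (ENSSSCG00000000228), whose product concentrates at the axon initial segment and nodes of Ranvier of mature neurons, had 2.45 FPKM in iron dextran and 2.04 FPKM in control. Its log2 difference was 0.18. SCN3A (ENSSSCG00000015911), an alpha subunit of the fetal brain in rodents and humans, had 2.37 FPKM in iron dextran and 1.72 FPKM in control, a log2 difference of 0.31. Both genes stood far below SCN2A in both samples. SCN2A was 10.7 times SCN8A in iron dextran and 11.3 times in control, and it was 11.1 times SCN3A in iron dextran and 13.3 times in control.

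SCN1A (ENSSSCG00000024204), the alpha subunit on which fast-spiking interneurons depend in mice, had 1.73 FPKM in iron dextran and 1.15 FPKM in control. The ratio of the FPKM values was 1.503, and on the log2(FPKM + 1) scale the difference was 0.34, short of 1.5-fold. It had the largest ratio of the channel genes with a mean of at least 1 FPKM, at the lowest level of them. Among all genes tested, 7.81% had a difference at least as high. This share does not show SCN1A to be unusual, as it was picked as the largest ratio of 19.

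The ratios of these 4 alpha genes ran from 1.14 (SCN2A) to 1.503 (SCN1A), and their median log2 difference was 0.24. Genes within 2-fold of their levels had medians from −0.022 (at the level of SCN2A) to 0.065 (at that of SCN8A). Each of the 4 lay above the median of genes of its level. Of all 19 channel genes tested, 11 lay above that median and 8 below it, near an even split. Summed over all 10 alpha genes in the table, FPKM came to 33.3 in iron dextran and 28.3 in control, a ratio of 1.18. The shares of SCN1A (5.19% in iron dextran, 4.06% in control) and SCN3A (7.11% in iron dextran, 6.09% in control) were larger in iron dextran, and that of SCN2A was smaller, by −2.44 percentage points in iron dextran minus control. Shares within a class do not depend on how the columns are scaled.

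SCN2B (ENSSSCG00000021651), a beta subunit joined to the alpha subunit by a disulfide bond, had 94.1 FPKM in iron dextran and 103 FPKM in control, a ratio of 0.917 and a log2 difference of −0.12. It stood above every alpha gene in both samples. The median of genes at its level was −0.075, not far from its own value. Scaling the columns to the same total moved the median of all genes to 0.10. The difference of SCN2B was then −0.0052, still below that median.

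**Figure D2:**
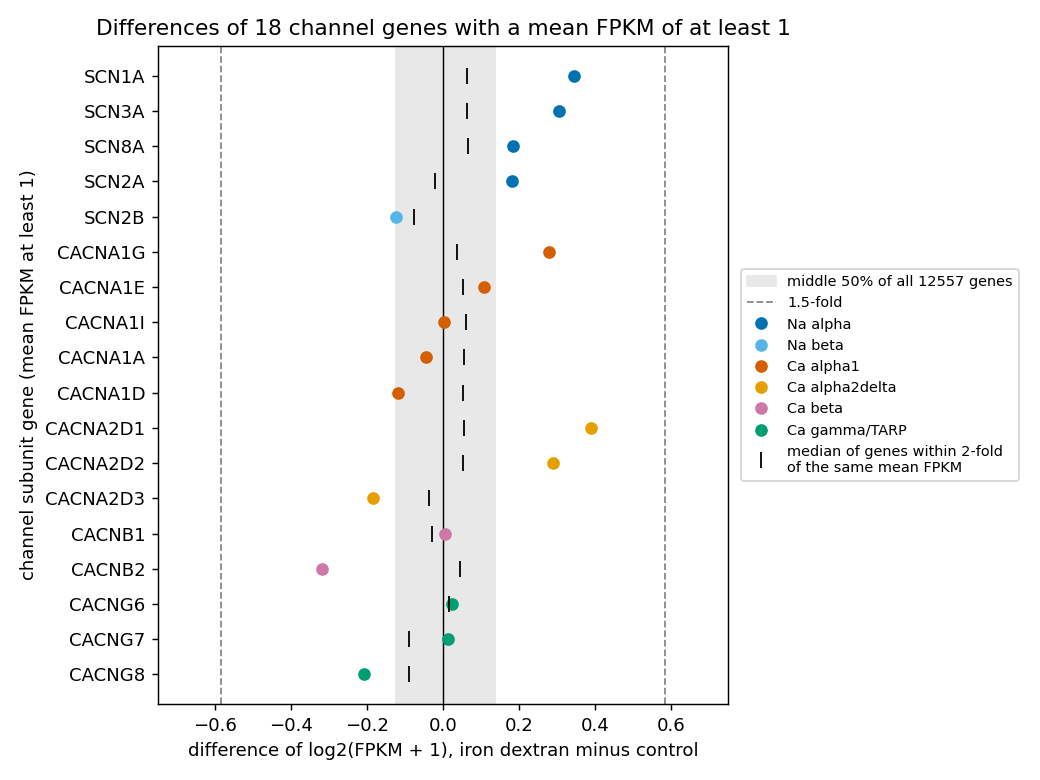
Log2 difference (on FPKM + 1, iron dextran less control) of 18 channel genes with a mean of at least 1 FPKM, 1 point per gene and 1 sample per group; the grey band is the middle 50% of all genes tested, dashed lines mark 1.5-fold and black ticks mark the median of genes within 2-fold of the same level. All points lie inside the dashed lines, from CACNB2 at −0.32 to CACNA2D1 at 0.39.

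The other 6 alpha genes were near the bottom of the scale. SCN9A (ENSSSCG00000015913), known from sensory and sympathetic neurons, had 0.288 FPKM in iron dextran and 0.156 FPKM in control. SCN7A (ENSSSCG00000015914), an atypical member that senses extracellular sodium in mouse glia, had 0.138 FPKM in iron dextran and 0.124 FPKM in control. At such levels, with 1 sample per group, no comparison between the samples is drawn.

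SCN4A (ENSSSCG00000017282), the alpha subunit of skeletal muscle, had 0.036 FPKM in iron dextran and 0.0518 FPKM in control. SCN10A (ENSSSCG00000011260) and SCN11A (ENSSSCG00000029419), both known from nociceptors, were each listed at 0 in 1 sample. SCN10A had 0.0308 FPKM in iron dextran and was listed at 0 in control; SCN11A was listed at 0 in iron dextran and had 0.0305 FPKM in control. In the RefSeq gene order of a later pig assembly (Sscrofa11.1), SCN1A, SCN9A and SCN7A follow each other with no protein-coding gene between them, and so do SCN10A and SCN11A. Of these neighbours only SCN1A passed 1 FPKM. The alpha genes are paralogs of similar sequence, so their values depend on how the authors' counting assigned shared reads, and the use of strand is not given.

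Calcium channel alpha1 genes with an ID were expressed more evenly than sodium channel alpha genes. Of these alpha1 genes, 5 of 7 lay between about 3 and 7 FPKM. CACNA1B, CACNA1C and CACNA1H had no ID, so the class is incomplete here. CACNA1G (ENSSSCG00000017562), a T-type channel that opens at low voltage and supports burst firing, had 7.15 FPKM in iron dextran and 5.72 FPKM in control. Its log2 difference of 0.28 was the largest in this class. CACNA1I (ENSSSCG00000000082), another T-type channel, had 2.78 FPKM in iron dextran and 2.77 FPKM in control. These T-type genes thus stood further apart in iron dextran, where CACNA1G was 2.57 times CACNA1I, than in control, where it was 2.06 times CACNA1I.

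CACNA1D (ENSSSCG00000011455), an L-type channel that opens at fairly negative voltages, had 4.91 FPKM in iron dextran and 5.41 FPKM in control, a log2 difference of −0.12. CACNA1G was 1.46 times CACNA1D in iron dextran and 1.06 times, and so close to it, in control. CACNA1E (ENSSSCG00000015543), the R-type channel, had 3.50 FPKM in iron dextran and 3.17 FPKM in control, a log2 difference of 0.11. CACNA1A (ENSSSCG00000013754), the P/Q-type channel that drives transmitter release, had 3.12 FPKM in iron dextran and 3.25 FPKM in control. Its log2 difference of −0.046 became 0.046 with the columns scaled to the same total.

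The median log2 difference of these 5 alpha1 genes was 0.0036, which turned to −0.0035 with TMM scaling (trimmed mean of M values) and to −0.050 after centring on genes of like level. Genes of like level had medians from 0.037 (at the level of CACNA1G) to 0.060 (at that of CACNA1I). Of the summed FPKM of alpha1 genes with an ID, CACNA1G took 33.1% in iron dextran and 27.8% in control. CACNA1D took 22.7% in iron dextran and 26.3% in control. CACNA1F (ENSSSCG00000012298), the L-type channel of photoreceptors, had 0.117 FPKM in iron dextran and 0.156 FPKM in control. CACNA1S (ENSSSCG00000024784), the L-type channel of skeletal muscle, had 0.0112 FPKM in iron dextran and 0.0841 FPKM in control. Both values are close to the bottom of the table, and no comparison is drawn from them.

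**Figure D3:**
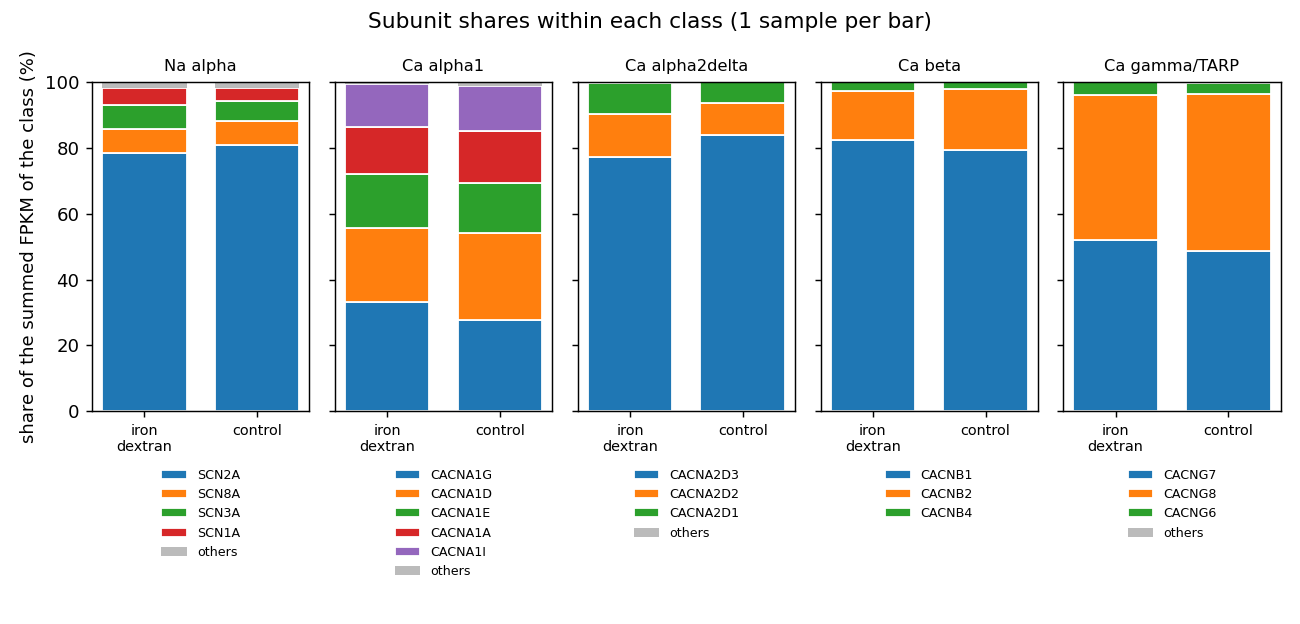
Share of each gene in the summed FPKM of its class (percent), with the iron dextran sample left of the control sample in each panel; genes under 1% in both samples are joined as others, and sodium channel beta genes are not drawn. Among genes with an ID, SCN2A, CACNA2D3 and CACNB1 take over 75% of their classes in both samples. The calcium channel alpha1 class is divided among 5 genes. Family genes without an ID, such as CACNA1C and CACNB3, are not in the class sums.

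Among alpha2delta genes, 2 had higher values in iron dextran and the most abundant had a lower value. CACNA2D1 (ENSSSCG00000015402), a binding site of gabapentin and also a thrombospondin receptor in mice, had 3.77 FPKM in iron dextran and 2.64 FPKM in control. Its log2 difference of 0.39 was the highest of the channel genes tested, and genes of its level had a median of 0.055. Among all genes tested, 5.94% had a difference at least as high. A gene picked as the highest of 19 stands high by that choice, so this share does not show it to be unusual. CACNA2D2 (ENSSSCG00000011412), the other gabapentin-binding subunit, had 5.31 FPKM in iron dextran and 4.16 FPKM in control, a log2 difference of 0.29.

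CACNA2D3 (ENSSSCG00000027019), the main alpha2delta transcript here, had 31.0 FPKM in iron dextran and 35.4 FPKM in control, a log2 difference of −0.18. It took 77.3% of the class in iron dextran and 83.9% in control, a difference in share of −6.60 percentage points. CACNA2D3 was 8.22 times CACNA2D1 in iron dextran and 13.4 times in control, and 5.84 times CACNA2D2 in iron dextran and 8.50 times in control. The retinal subunit CACNA2D4 (ENSSSCG00000026537) had 0.0418 FPKM in iron dextran and was listed at 0 in control. The summed class had 40.1 FPKM in iron dextran and 42.2 FPKM in control, a ratio of 0.951.

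Of the beta subunits, CACNB3 had no ID. CACNB1 (ENSSSCG00000017510), known from skeletal muscle and also present in brain, had 28.7 FPKM in iron dextran and 28.6 FPKM in control. CACNB2 (ENSSSCG00000011040), the main beta subunit of heart muscle and also a brain subunit, had 5.11 FPKM in iron dextran and 6.61 FPKM in control. Its log2 difference of −0.32 was the lowest among calcium channel genes, and genes of its level had a median of 0.044. CACNB1 was 5.62 times CACNB2 in iron dextran and 4.32 times in control. CACNB4 (ENSSSCG00000029073), a partner of the P/Q-type pore in the cerebellum of mice, had 0.960 FPKM in iron dextran and 0.732 FPKM in control and lay just under the limit on low values.

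The most abundant channel-family transcripts with an ID were TARPs. CACNG2, CACNG3, CACNG4 and CACNG5 had none. CACNG7 (ENSSSCG00000025532) had 141 FPKM in iron dextran and 139.7 FPKM in control. CACNG8 (ENSSSCG00000003255), the TARP most typical of the hippocampus in rodents, had 119 FPKM in iron dextran and 137 FPKM in control, a log2 difference of −0.21. CACNG7 was 1.19 times CACNG8 in iron dextran and 1.02 times, and so near equal, in control. The median of genes at their level was −0.088 for CACNG7, which lay above it, and −0.089 for CACNG8, which lay below it.

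CACNG6 (ENSSSCG00000003257), a gamma gene related to that of muscle, had 10.3 FPKM in iron dextran and 10.1 FPKM in control. In the RefSeq order CACNG6 and CACNG7 are direct neighbours, and their levels differ widely. CACNG1 (ENSSSCG00000017271), the gamma subunit of the skeletal muscle channel, was listed at 0 in iron dextran and had 0.156 FPKM in control. It is 1 of 4 channel genes listed at 0 in exactly 1 sample, with SCN10A, SCN11A and CACNA2D4, out of 11 with a mean under 1 FPKM. Among all genes under that level and above 0 in at least 1 sample, 25.5% were listed at 0 in 1 sample. An exact 0 in such a table can also be a failed estimate.

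**Figure D4:**
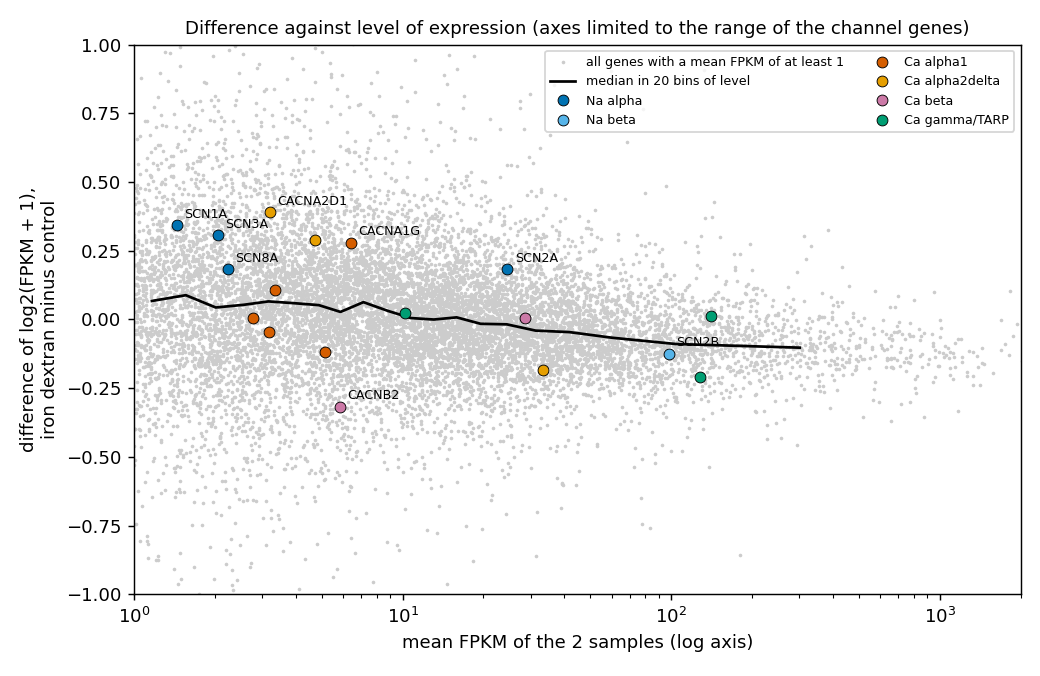
Log2 difference (on FPKM + 1, iron dextran less control) against the mean FPKM of the 2 samples (log axis), with all genes tested in light grey, their median in 20 bins of level as a black line, and 18 channel genes in colour. The line descends with level, from above 0 at 1 to 5 FPKM to below 0 above 20 FPKM, and SCN2A lies above it while CACNB2 lies below it.

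The difference between the samples moved with the level of expression over all genes. Its median was 0.061 over 4163 genes with a mean of 1 to 5 FPKM and −0.077 over 1367 genes with 50 to 200 FPKM. The low range held 7 of the 12 channel genes above 0 and, of the channel genes below 0, only CACNA1A. Of all genes in that range, 59.9% were above 0. SCN2B, below 0, was in the high range, where 25.9% of all genes were above 0. After centring on genes of like level, an alternative chosen after the data had been seen, the median of the sodium channel alpha genes was 0.23 and that of the alpha2delta genes 0.24. SCN2A was then at 0.20, CACNA2D1 at 0.33 and CACNB2 at −0.35. SCN2B was at −0.035, close to the genes of its level.

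Partners of the channels were described from 5 lists chosen by role. Of 111 symbols, 74 were matched and 65 reached a mean of 1 FPKM. Of these 65, 38 were above 0, 27 were below 0, 1 was at least 1.5-fold higher and 0 were 1.5-fold lower. Their median log2 difference was 0.029, against −0.0046 for all genes tested, and the count of 1 in 65 is again near the background of 2.47%.

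Among proteins that anchor and tune sodium channels at the axon initial segment and nodes, 14 genes were measured, with a median of 0.051. NRCAM, an adhesion molecule of these sites, had 5.47 FPKM in iron dextran and 3.85 FPKM in control, a log2 difference of 0.41. The ankyrin gene ANK2 had 11.5 FPKM in iron dextran and 9.32 FPKM in control. TNC, a matrix glycoprotein, had 1.34 FPKM in iron dextran and 0.995 FPKM in control, and the contactin CNTN3 had 2.03 FPKM in iron dextran and 1.72 FPKM in control. None of the 14 was past 1.5-fold.

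The 20 measured regulators and partners of calcium channels had a median of 0.013 (−0.0038 at a mean of at least 5 FPKM), and none was past 1.5-fold. PPP3CA, a catalytic subunit of calcineurin, which is activated by calcium entry, had 43.0 FPKM in iron dextran and 31.1 FPKM in control, a log2 difference of 0.45. TSPOAP1, which links calcium channels to the release machinery, had 28.7 FPKM in iron dextran and 23.6 FPKM in control. The anchoring protein AKAP5 had 2.59 FPKM in iron dextran and 2.13 FPKM in control, and CACHD1, an alpha2delta-like protein, had 11.4 FPKM in iron dextran and 9.79 FPKM in control.

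The list of calcium release channels, pumps and exchangers held the 1 gene past 1.5-fold among 16 measured, with a median of 0.059 over the list (−0.034 at a mean of at least 5 FPKM). MCU, the pore of the mitochondrial calcium uniporter, had 9.45 FPKM in iron dextran and 5.64 FPKM in control, a log2 difference of 0.65. The plasma membrane calcium pumps ATP2B1 and ATP2B4 had log2 differences of 0.47 and 0.36, with ATP2B1 at 18.2 FPKM in iron dextran and 12.9 FPKM in control and ATP2B4 at 2.57 FPKM in iron dextran and 1.78 FPKM in control. ITPR1, a calcium release channel of the endoplasmic reticulum, had 1.59 FPKM in iron dextran and 1.26 FPKM in control. Of the 16 genes, 9 were above 0 and 7 below.

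Genes of the sodium leak channel and the sodium pump had a median of −0.024 over 7 genes (0.095 with equal column totals, 0.078 after centring on genes of like level), with none past 1.5-fold. UNC80, a subunit of the leak channel complex, had 1.91 FPKM in iron dextran and 1.22 FPKM in control, a log2 difference of 0.39. The ratio of its FPKM values was 1.57, and with a pseudocount of 0.1 or 0.01 it was past 1.5-fold. ATP1B1, a beta subunit of the pump, had 825 FPKM in iron dextran and 786 FPKM in control, and NALF2, a factor of the leak channel complex, had 8.63 FPKM in iron dextran and 9.37 FPKM in control.

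Of 8 measured splicing factors and repressors that act on neuronal channel transcripts, 6 were above 0, with a median of 0.12 and none past 1.5-fold. The neuronal RNA-binding proteins CELF4 and ELAVL2 lay in this direction, with CELF4 at 24.6 FPKM in iron dextran and 19.9 FPKM in control and ELAVL2 at 7.42 FPKM in iron dextran and 5.94 FPKM in control. RBFOX1, which regulates exons of several channel genes, had 22.6 FPKM in iron dextran and 18.8 FPKM in control, and PTBP2, a splicing repressor of developing neurons, had 2.07 FPKM in iron dextran and 1.77 FPKM in control.

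**Figure D5:**
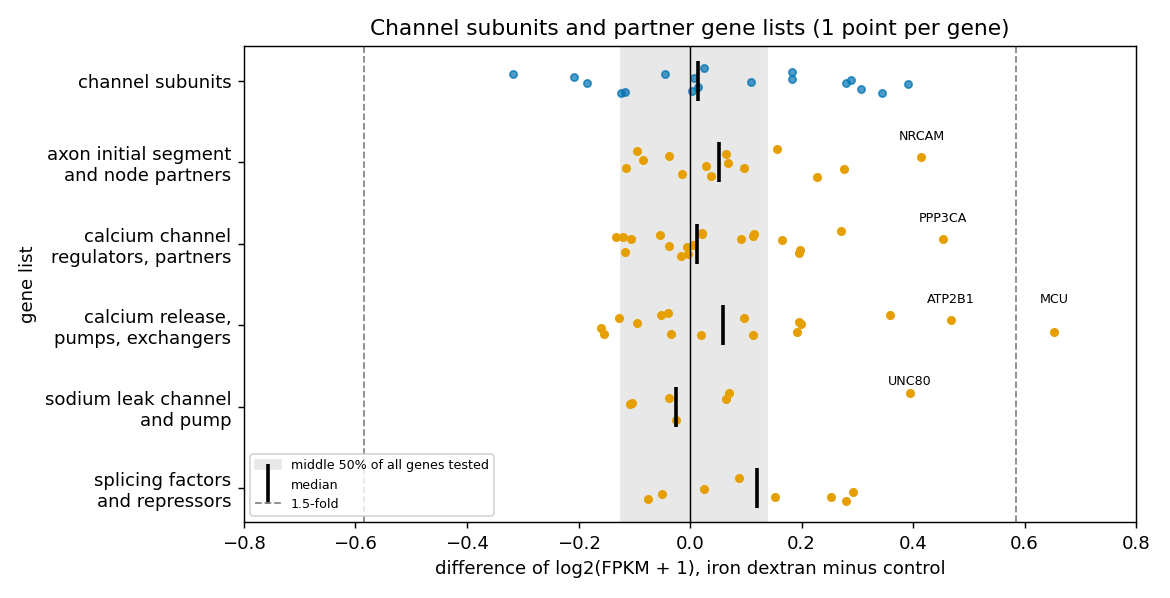
Log2 difference (on FPKM + 1, iron dextran less control) of 18 measured channel subunits (blue) and the measured members of 5 partner lists (orange), 1 point per gene; thick ticks are list medians (for the channels, over all 19 tested), the grey band is the middle 50% of all genes tested and dashed lines mark 1.5-fold. MCU, at 0.65, is the one point past the line, and all list medians lie inside the band.

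Markers of cell types and neighbouring regions were read beside these values. Neuronal markers had a median of −0.031 (0.089 with equal column totals, 0.072 after centring on genes of like level) with 3 of 8 above 0, and summed to 4039 FPKM in iron dextran and 4188 FPKM in control. Interneuron markers had a median of 0.12 with 6 of 8 above 0, although PVALB, a marker of fast-spiking interneurons, had 84.4 FPKM in iron dextran and 105 FPKM in control. Excitatory markers had a median of −0.065 over 5 genes (0.022 with the same column total). SLC17A7, the vesicular glutamate transporter of the forebrain, had 611 FPKM in iron dextran and 658 FPKM in control. Of the 5 excitatory markers 1, CAMK2A, was past 1.5-fold, at 3.93 FPKM in iron dextran and 1.995 FPKM in control. Among all genes tested, 2.47% were at least 1.5-fold higher. The 8 measured hippocampal subfield markers had a median of 0.037 (−0.034 at a mean of at least 5 FPKM), with 4 above 0 and 4 below. CALB1, a marker of granule cells, had 1.56 FPKM in iron dextran and 0.802 FPKM in control, and AMIGO2, a marker of the CA2 field in mice, had 5.77 FPKM in iron dextran and 6.78 FPKM in control.

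Thalamic and striatal markers, which bear on CACNA1G and CACNA1I as genes strongly expressed in the thalamus of rodents, had a median of −0.22 with all 5 measured genes below 0. With equal column totals this median was −0.11. These markers summed to 50.6 FPKM in iron dextran and 62.1 FPKM in control, with the thalamic marker PRKCD at 8.51 FPKM in iron dextran and 12.4 FPKM in control. DRD1 and DRD2, both under a mean of 1 FPKM, had higher values in iron dextran. DRD1 had 0.188 FPKM in iron dextran and 0.066 FPKM in control, and DRD2 had 0.510 FPKM in iron dextran and 0.457 FPKM in control. Striated muscle markers, which bear on SCN4A, CACNA1S and CACNG1, had 3 of 9 symbols matched and summed to 10.8 FPKM in iron dextran and 11.6 FPKM in control. Most of this was ACTA1, at 9.45 FPKM in iron dextran and 10.9 FPKM in control. TNNT2 went the other way, at 1.24 FPKM in iron dextran and 0.636 FPKM in control. MYL1 was low in both, at 0.149 FPKM in iron dextran and 0.156 FPKM in control.

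Pericyte and smooth muscle markers had a median of −0.098 over 6 genes (0.011 with the same column total) and endothelial markers one of −0.13 over 4 (−0.018 with equal column totals). Among glia, oligodendrocyte markers had a median of −0.21 (−0.085 with equal column totals) with 4 of 5 below 0 and a sum of 7629 FPKM in iron dextran against 8724 FPKM in control. Oligodendrocyte precursor markers had a median of −0.13 (−0.0069 with equal column totals), with 2 of 5 above 0. Astrocyte markers had a median of 0.21 with 4 of 6 above 0, although their sum was 1551 FPKM in iron dextran and 1612 FPKM in control. Microglial markers had a median of 0.41 (0.51 with equal column totals, 0.35 after centring on genes of like level) with all 5 above 0. Of these 5, P2RY12 was past 1.5-fold, at 20.05 FPKM in iron dextran and 9.80 FPKM in control. Across all genes tested, 2.47% were at least 1.5-fold higher. The part of any of these cell types or regions in the channel values was not tested.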

How the data were processed

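RNA from hippocampus was sequenced in 1 iron dextran and 1 control sample, on an Illumina instrument per the labels. The authors deposited FPKM values in 1 table, with 1 column per sample, assigned by the letter that column name and sample title share. The submitters' processing notes name cutadapt 1.2.1, TopHat and the builds Sscrofa10.2 and susScr3; the sources used here do not give the program behind the FPKM values, the annotation or the strand setting. Depth is unknown, so no counting interval is given.

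Symbols came from a table of Ensembl IDs. Differences of log2(FPKM + 1) were computed with Python 3.11.15, pandas 2.3.3 and numpy 2.4.6 over genes with a mean of at least 1 FPKM; the calculation was tested on simulated data. Calls of higher or lower used a limit of 1.5-fold. Channel genes are named, and from each partner list up to 4 genes with the largest absolute difference, with examples by the same rule from the marker lists; 2 channel genes and 1 partner gene enter the counts, sums and medians but are not reported here. The members and lists were chosen with earlier results of these data known. Alternatives were other pseudocounts, filters, folds and scalings. RefSeq gene order of Sscrofa11.1 was used only for neighbours.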

Additional observations from a re-analysis of the deposited data

How the results depend on the processing

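No alternative put any channel gene past the limit of 1.5-fold: the counts stayed at 0 higher and 0 lower with pseudocounts of 0.1 and 0.01, without a filter, at a mean of at least 5 FPKM, with each scaling, at folds of 2 and 4 and after centring by level. SCN1A fell only just short, at 0.583 with a pseudocount of 0.01, and its plain FPKM ratio was 1.503. No paired analysis was possible because each group was 1 sample, and leaving out a sample leaves no comparison. The direction of the sodium channel alpha median (0.24) held in every alternative that recomputed it. Another pseudocount cannot turn the sign of a gene, and no scaling shifted values far enough to turn this median, so those settings do not check its direction. The median was 0.35 and 0.36 with pseudocounts of 0.1 and 0.01, 0.10 without a filter and 0.34 with the same column total. At a mean of at least 5 FPKM this class was 1 gene, SCN2A at 0.18, so that setting says nothing of the other alpha genes. With the same total, which adds 0.12 to a log2 difference of an abundant gene, the medians were 0.13 over the 19 genes, 0.39 for alpha2delta, −0.047 for calcium channel beta and 0.13 for gamma genes. Without a filter they were −0.046 for alpha1, 0.17 for alpha2delta, 0.0063 for beta and −0.097 for gamma genes. At a mean of at least 5 FPKM the median over 11 channel genes turned below 0, to −0.12, and alpha2delta, then 1 gene, stood at −0.18. The alpha1 median, near 0, was −0.0035 after TMM rescaling (trimmed mean of M values) and −0.050 after centring by level. CACNA1A turned above 0 with the same total, CACNB1 and CACNA1I below 0 with TMM, and CACNA1I below 0 after centring by level. The share of CACNB1 in its class in iron dextran was 84.9% without CACNB4. Partner genes past the fold numbered 2, UNC80 of the sodium leak list joining MCU, with either smaller pseudocount, and 0 at folds of 2 and 4. Over all 12557 genes tested, 310 were higher and 185 lower; the counts were 558 and 332 with a pseudocount of 0.1, 599 and 357 with 0.01, 113 and 71 of 8394 at a mean of at least 5 FPKM, 454 and 132 with the same total, 93 and 53 at 2-fold, 30 and 21 at 4-fold, and 434 and 282 of 17452 without a filter. The depth behind low genes such as SCN1A is unknown, and 1 sample per group limits every difference.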
